A study of Mus musculus with 18 samples.

Results

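Polyamine metabolism was followed in C2C12 myotubes, muscle fibre-like cells that form when cultured mouse C2C12 myoblasts fuse, through 10 genes chosen by name: Odc1, Amd1, Srm, Sms, Smox, Sat1, Paox, Azin1, Oaz1 and Oaz2. Every probe that the platform annotation assigns to one of them was taken. This gave 12 of the 45281 probes on the array and 6 of the 10 genes: 5 probes of Smox, 3 of Srm and 1 each of Odc1, Sms, Azin1 and Oaz2. Amd1, Sat1, Paox and Oaz1 were not analysed here. The mRNA levels come from mouse whole-genome bead arrays made by Illumina. At 6 h there were 4 samples with dexamethasone (Dex, an artificial glucocorticoid hormone, at 1 uM) and 4 with ethanol, its vehicle. At 24 h there were 5 samples with Dex and 5 with ethanol. Ethanol made up 0.01% of the medium volume, and all 18 samples were kept in DMEM with 2% horse serum. C2C12 is 1 established line, so its responses stand for that line. The design text gives triplicates while the labels number up to 4 or 5 samples a group. The labels do not say whether samples of a group were grown separately, so the p-values rest on a sample-to-sample spread that could be technical.

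The polyamines putrescine, spermidine and spermine are small positively charged molecules that bind nucleic acids and that growing cells need. Ornithine decarboxylase (Odc1) makes putrescine from ornithine, S-adenosylmethionine decarboxylase (Amd1) supplies the aminopropyl donor, and spermidine synthase (Srm) and spermine synthase (Sms) build the longer chains. Breakdown runs through spermine oxidase (Smox), which turns spermine back into spermidine and releases hydrogen peroxide, and through the acetyltransferase Sat1 with the oxidase Paox. Antizymes (Oaz1, Oaz2) bind ornithine decarboxylase and send it to the proteasome, and the antizyme inhibitor Azin1 binds antizymes in its place. In mouse muscle, Smox mRNA is known to fall in several forms of atrophy, and glucocorticoids are a classical cause of muscle atrophy. Much of the control of this pathway acts on translation and protein stability, which mRNA arrays do not measure.

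Odc1 and Smox are the measured members with a probe past the test. The 250 bases before the start site of each, from RefSeq on build GRCm38.p6, are shown 5′ to 3′ so that the promoters of the 2 genes can be compared. Capitals mark matches to the GC box GGGCGG or its reverse complement CCGCCC, the sequence bound by Sp1-type factors. The Odc1 window is chr12:17544623-17544872 on the plus strand and the Smox window is chr2:131491612-131491861 on the plus strand.
Odc1: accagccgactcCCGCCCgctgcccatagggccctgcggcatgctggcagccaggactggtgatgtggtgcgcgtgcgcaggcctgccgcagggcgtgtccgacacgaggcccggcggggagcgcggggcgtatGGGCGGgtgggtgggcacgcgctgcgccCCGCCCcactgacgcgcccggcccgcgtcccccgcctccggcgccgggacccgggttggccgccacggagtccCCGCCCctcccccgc
Smox: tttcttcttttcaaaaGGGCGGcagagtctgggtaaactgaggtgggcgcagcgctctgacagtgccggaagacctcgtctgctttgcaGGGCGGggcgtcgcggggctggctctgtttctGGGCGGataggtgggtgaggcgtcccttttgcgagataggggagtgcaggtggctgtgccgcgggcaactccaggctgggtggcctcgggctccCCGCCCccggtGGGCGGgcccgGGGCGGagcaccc
The Odc1 window holds 4 GC boxes and is 80.0% G and C, and the Smox window holds 6 GC boxes and is 68.0% G and C. Over all 32851 RefSeq promoters of this length 32.7% hold at least 1 GC box, and the median G and C content is 52.4%. GC boxes are not confined to the called genes: measured members without a call also hold them, with 3 in the Oaz2 window and 4 in a window of Sms. Another window of Sms holds none. Srm and Azin1 had no window to look at. On both strands the windows were also searched for the E-box CACGTG (in 6.02% of promoters), the cAMP response element TGACGTCA (1.55%), the TATA box TATAAA (12.4%), the glucocorticoid half-site AGAACA (16.1%) and the full palindrome, in which 3 bases of any kind part the half-site from its reverse complement (0.00913%). None of these 5 letter strings occurs in the Odc1 or the Smox window. The full palindrome contains 2 half-sites, so those motifs overlap. Such matches describe these windows and are not evidence of binding.

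Some facts about the arrays bear on the values. The median intensity of an array was 99.8 to 100.4 at 6 h, while at 24 h it was 85.2 to 86.8, so intensities were compared within a time and their levels were not compared across times. Scanner files and detection calls were not used here, and a probe near the array median is not shown to be above background. Pairs of arrays of a group correlated at 0.992 or higher across probes. The deviations of arrays from their group means did not fill all directions they could take. Of 6 possible directions at 6 h, 1 held under 0.1% of the spread of bright probes, and of 8 possible directions at 24 h, 3 did. These empty directions were entered as covariates. In the fit of all 18 arrays this left the fold changes as they were and 10 residual degrees of freedom in place of 14. Fits with arrays left out kept the covariates found on all 18 arrays. There the covariates can shift fold changes and calls, so those values are not plain differences of group means. At 24 h the Dex and ethanol arrays numbered 1 deviated from their group means in opposite ways (r = -0.914 across probes), as did those numbered 2 (-0.755) and 3 (-0.744). Calls below are therefore also given without both arrays numbered 1. The treatment was visible in Fkbp5, a classical glucocorticoid target gene, at a log2 fold change of 3.93 at 6 h and 3.40 at 24 h. Myotube markers were bright in every group: the brightest probe of each of the 7 of 8 such genes with a probe had group means of 3673 or more. Of the myoblast markers, Pax7 and Myf5 read near or below the array median and Myod1 between 577 and 1281 as group means. The brightest probe of each of the 3 adipocyte and 3 osteoblast markers had group means between 71.8 and 131.0.

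Odc1, the first and rate-limiting enzyme of the pathway, was lower with Dex at 24 h and did not pass the test at 6 h. At 24 h its probe (ILMN_3008406) read 3922.5, 3769, 4029, 4039 and 3899 on the Dex arrays, against 5118, 5194, 4910.4, 4893 and 5137 on the ethanol arrays. Every Dex array lay below every ethanol array. The means were 3932 ± 110.1 with Dex and 5050.4 ± 139 with ethanol (SD, n = 5 each), which is -0.36 on the log2 scale (SE 0.07, 95% interval -0.50 to -0.23, limma adjusted p = 0.000815). The intensity thus fell by 22.2%. At 6 h the Dex arrays read 7057, 7246, 7963 and 8253 and the ethanol arrays 7157, 7311, 7917 and 7906. These groups overlapped, and the range of the ethanol arrays lay within that of the Dex arrays. The log2 fold change at 6 h was 0.01 (SE 0.07, 95% interval -0.14 to 0.16, adjusted p = 0.982). The Dex effect at 24 h minus that at 6 h was -0.37 on the log2 scale (95% interval -0.57 to -0.17). That difference did not pass the threshold after adjustment over all probes (limma adjusted p = 0.0734), and it did without the covariates for the empty directions (adjusted p = 0.00777). The call at 24 h held in each of the 28 alternative settings, at an adjusted p of 0.0152 or less.

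Smox, the spermine oxidase, had lower mean intensity with Dex on all 5 of its probes at both times. At 24 h 3 of the 5 probes passed the test, and at 6 h none did. The probe with the smallest p was ILMN_1256359. At 24 h it read 116.4, 112.0, 112.0, 122.4 and 112.1 on the Dex arrays, against 152.9, 158.3, 163.6, 146.0 and 158.7 on the ethanol arrays. The lowest ethanol array stood above the highest Dex array. Its means were 115.0 ± 4.56 with Dex and 155.9 ± 6.71 with ethanol (SD, n = 5 each), a difference of -0.44 on the log2 scale (SE 0.07, limma adjusted p = 0.000164). This call held in each of 27 alternatives (adjusted p at most 0.00333). Probe ILMN_2608052 read 116.1, 104.1, 120.7, 112.0 and 111.9 with Dex, against 138.4, 145.6, 128.6, 133.8 and 147.1 with ethanol. Here too the groups did not overlap, and the log2 fold change was -0.30 (SE 0.09, adjusted p = 0.0423).

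The brighter pair of Smox probes gave smaller differences at 24 h. Probe ILMN_1247267 read 336.8, 430.4, 355.1, 397.6 and 371.9 with Dex at 24 h, against 476.7, 423.7, 455.9, 456.5 and 412.3 with ethanol. The Dex array numbered 2 lay above the 2 lowest ethanol arrays, so the groups overlapped. Its log2 fold change was -0.24 (SE 0.07, adjusted p = 0.0465), a value close to the threshold. Probe ILMN_2597030 had -0.17 at 24 h (SE 0.08, adjusted p = 0.203), with means of 322.3 ± 29.4 with Dex and 362.7 ± 20.0 with ethanol. Probe ILMN_2766469 had -0.28 (SE 0.11, adjusted p = 0.130), with means of 102.7 ± 12.7 with Dex and 123.9 ± 9.58 with ethanol. It is a dim probe, and so are the called probes ILMN_1256359 and ILMN_2608052. Their 24 h means were 115.0 and 113.0 with Dex and 155.9 and 138.7 with ethanol, where array medians were 85.2 to 86.8. Without Dex replicate 1 at 24 h ILMN_2766469 passed the test (-0.39, adjusted p = 0.0279), a fold change that the kept covariates also shift. The calls of ILMN_1247267 and ILMN_2608052 were lost in fits without single arrays, and that of ILMN_1247267 also under other processing. It was lost with normexp background correction (adjusted p = 0.0829), with array weights (0.0532) and with the 24 h arrays fitted alone (0.0723). The call of ILMN_1247267 was lost without any 1 of 15 of the 18 arrays, at adjusted p up to 0.239. It held without Dex replicate 4 at 6 h, without ethanol replicate 5 at 24 h or without Dex replicate 2 at 24 h. The call of ILMN_2608052 was lost without ethanol replicate 1, 2, 4 or 5 or Dex replicate 1, 2, 4 or 5 at 24 h, at adjusted p from 0.0616 to 0.215. Without both 24 h arrays numbered 1, these probes had -0.19 (adjusted p = 0.141) and -0.29 (0.110), while ILMN_1256359 and Odc1 kept their calls.

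At 6 h the order among Smox probes was another one: the brighter pair had groups that did not overlap. Probe ILMN_1247267 read 800.1, 800.4, 827.4 and 820.7 with Dex, against 892.4, 906.4, 910.6 and 933.4 with ethanol, or -0.17 on the log2 scale (SE 0.08, adjusted p = 0.375). Probe ILMN_2597030 read 645.9, 611.4, 661.7 and 666.4 with Dex, against 698.0, 739.4, 817.0 and 851.2 with ethanol, a log2 fold change of -0.26 (SE 0.09, adjusted p = 0.115). For ILMN_2597030 the adjusted p was 0.0290 without the covariates and 0.0488 without ethanol replicate 1. The remaining 3 Smox probes had -0.15, -0.18 and -0.29 at 6 h with adjusted p from 0.256 to 0.576. The Dex effect at 24 h minus that at 6 h ran from -0.26 to 0.09 over the 5 Smox probes, and none passed the test. These 5 probes report on 1 gene in the same RNA and are not independent of each other.

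**Figure D1:**
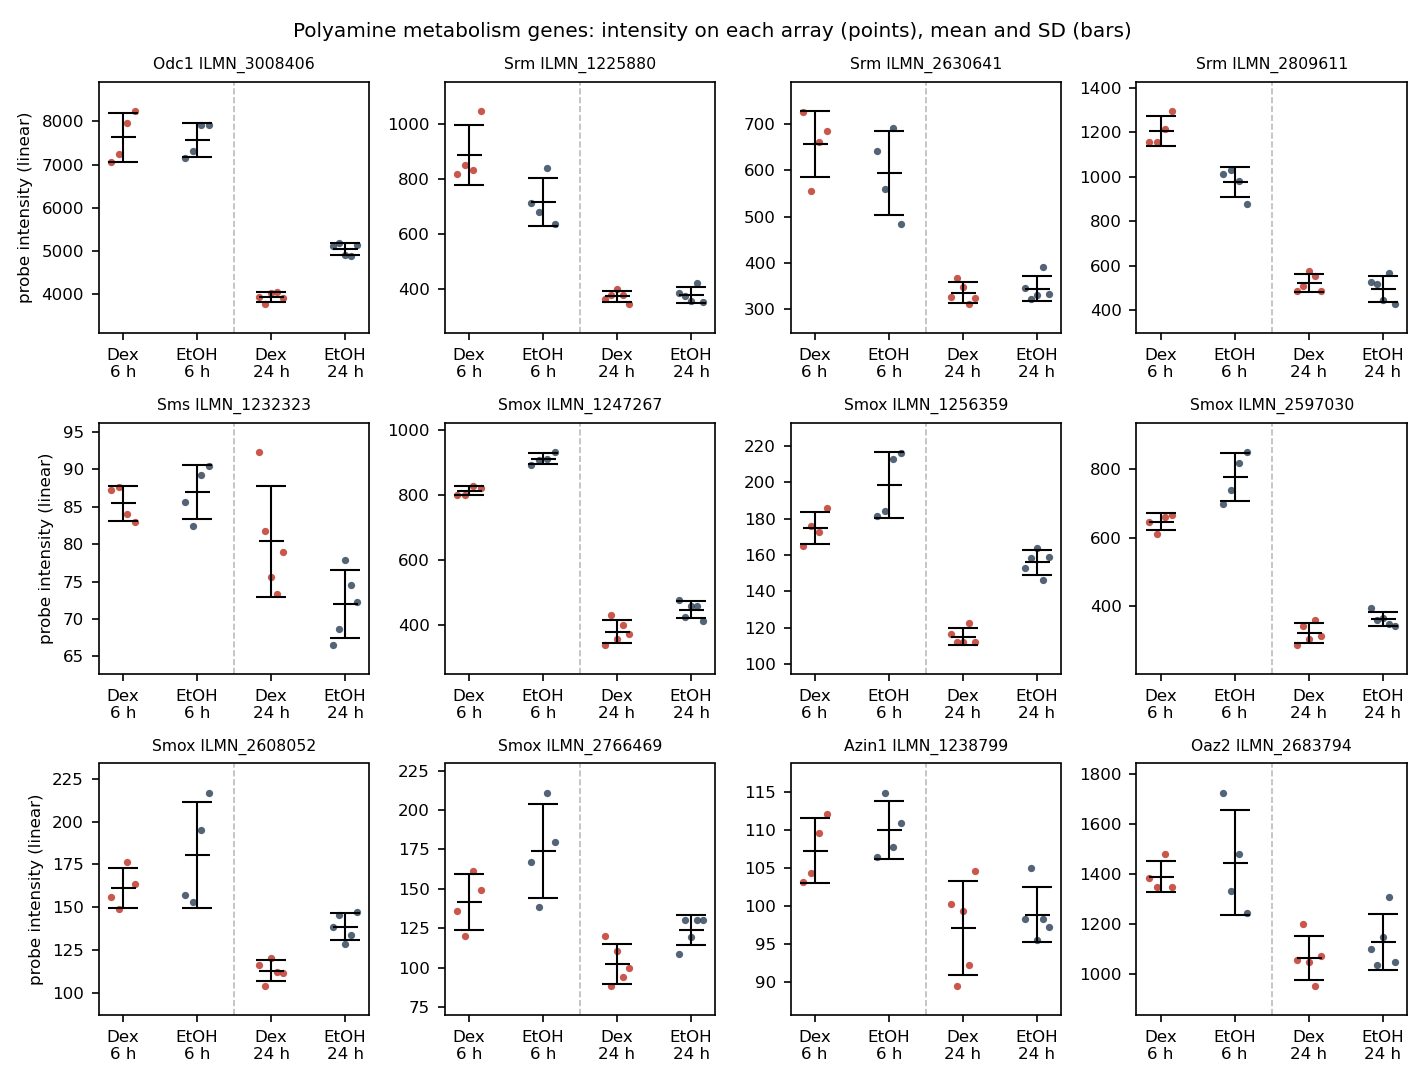
Each panel plots 1 probe of a polyamine gene: probe intensity on a linear scale that does not start at 0, for Dex and ethanol (EtOH) at 6 h and at 24 h. Points are single arrays, bars the mean and SD (4 arrays a group at 6 h, 5 at 24 h), and the dashed line separates the times, which are not compared; at 24 h all Dex points of Odc1 lie between 3769 and 4039, below the ethanol points.

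Srm, which makes spermidine from putrescine, had higher means with Dex at 6 h on its 3 probes, none of them past the test. Probe ILMN_2809611 read 1157, 1154, 1213 and 1297 with Dex, against 1010.0, 1029, 980 and 878 with ethanol. The groups did not overlap, and the log2 fold change was 0.31 (SE 0.09, 95% interval 0.12 to 0.50, limma adjusted p = 0.0765). Probe ILMN_1225880 read 817.7, 850.2, 833.6 and 1049.9 with Dex, against 712.0, 679.0, 840.5 and 636.4 with ethanol. Ethanol replicate 3 lay among the Dex arrays, and Dex replicate 4 stood apart above the others. Its log2 fold change was also 0.31 (SE 0.10, adjusted p = 0.0889). It passed the test without ethanol replicate 3 (0.42, adjusted p = 0.0142), a fold change that the kept covariates also shift. Probe ILMN_2630641 had 0.15 (SE 0.10, 95% interval -0.06 to 0.36, adjusted p = 0.606). Without the covariates for the empty directions, ILMN_2809611 and ILMN_1225880 passed at adjusted p = 0.0206 and 0.0262. At 24 h the 3 probes had log2 fold changes of 0.08, -0.02 and -0.04, with overlapping groups and adjusted p from 0.680 to 0.940. The change of the Dex effect between the times was -0.23, -0.33 and -0.19 for these probes, and none passed the test (adjusted p from 0.273 to 0.629).

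Sms, the spermine synthase, was read by a single dim probe (ILMN_1232323), whose group means of 71.9 to 87.0 lay below the array medians. It had a log2 fold change of 0.16 at 24 h (SE 0.07, adjusted p = 0.217), from 80.4 ± 7.44 with Dex and 71.9 ± 4.55 with ethanol, and -0.02 at 6 h (adjusted p = 0.948). A reading at that level is not shown to be above background.

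The measured regulators of ornithine decarboxylase protein did not pass the test. Antizyme 2 (Oaz2, ILMN_2683794) read 1064 ± 88.3 with Dex and 1128 ± 110.6 with ethanol at 24 h (SD, n = 5 each), or -0.08 on the log2 scale (95% interval -0.26 to 0.10, adjusted p = 0.677). At 6 h it read 1389 ± 61.4 with Dex and 1445 ± 210.3 with ethanol (SD, n = 4 each), or -0.05 (95% interval -0.25 to 0.16). Both intervals span 0. The Azin1 probe (ILMN_1238799) read close to the array median in every group, 107.3 ± 4.28 with Dex and 110.0 ± 3.79 with ethanol at 6 h, and 97.2 ± 6.17 with Dex and 98.9 ± 3.62 with ethanol at 24 h. Its log2 fold changes were -0.04 at 6 h and -0.03 at 24 h (adjusted p = 0.909 and 0.877).

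Counted over the 12 probes, none passed the test at 6 h and 4 passed at 24 h, all of them lower with Dex. At 6 h 3.04% of all 45281 probes passed, and at 24 h 6.28% passed, 3.09% as lower with Dex. At an unadjusted p under 0.05 there were 6 of the 12 at 6 h, 2 higher (both Srm) and 4 lower (all Smox), beside 13.2% of all probes. At 24 h there were 7, 1 higher (Sms) and 6 lower (Odc1 and the 5 of Smox), beside 19.4% of all probes. Without the covariates 3 of the 12 passed at 6 h, the Srm pair and Smox ILMN_2597030, beside 6.26% of all probes. The 4 called probes at 24 h come from 2 genes, Odc1 and Smox, of the 6 measured. For the difference between the times 0 of the 12 passed, beside 0.819% of all probes, and 3 had an unadjusted p under 0.05, beside 12.2% of all probes. Without the covariates 1 passed, the Odc1 probe, beside 3.70% of all probes. The groups did not overlap for 3 of 12 probes at 6 h (9.24% of all probes). At 24 h they did not overlap for 3 of 12, all lower with Dex (13.7% of all probes, 6.71% as lower). The median log2 fold change over the 12 probes was -0.04 at 6 h and -0.13 at 24 h, against a median within 0.002 of 0 for all probes. Since 5 of the 12 probes belong to Smox, these counts lean on that gene. In whole-culture RNA, fewer cells of a type and less RNA per cell cannot be told apart. Among the myotube markers, the muscle regulator Myog fell at 24 h on both its probes (-0.44 and -0.32, adjusted p = 0.0103 and 0.0380) and the muscle creatine kinase Ckm rose by 0.30 (adjusted p = 0.0425). The other 8 marker probes did not pass. The summed intensity of the 7 markers ranged from 79231.5 to 88217 over the Dex arrays and from 79749 to 96218 over the ethanol arrays at 24 h. The part of these markers in the Odc1 and Smox results was not tested.

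**Figure D2:**
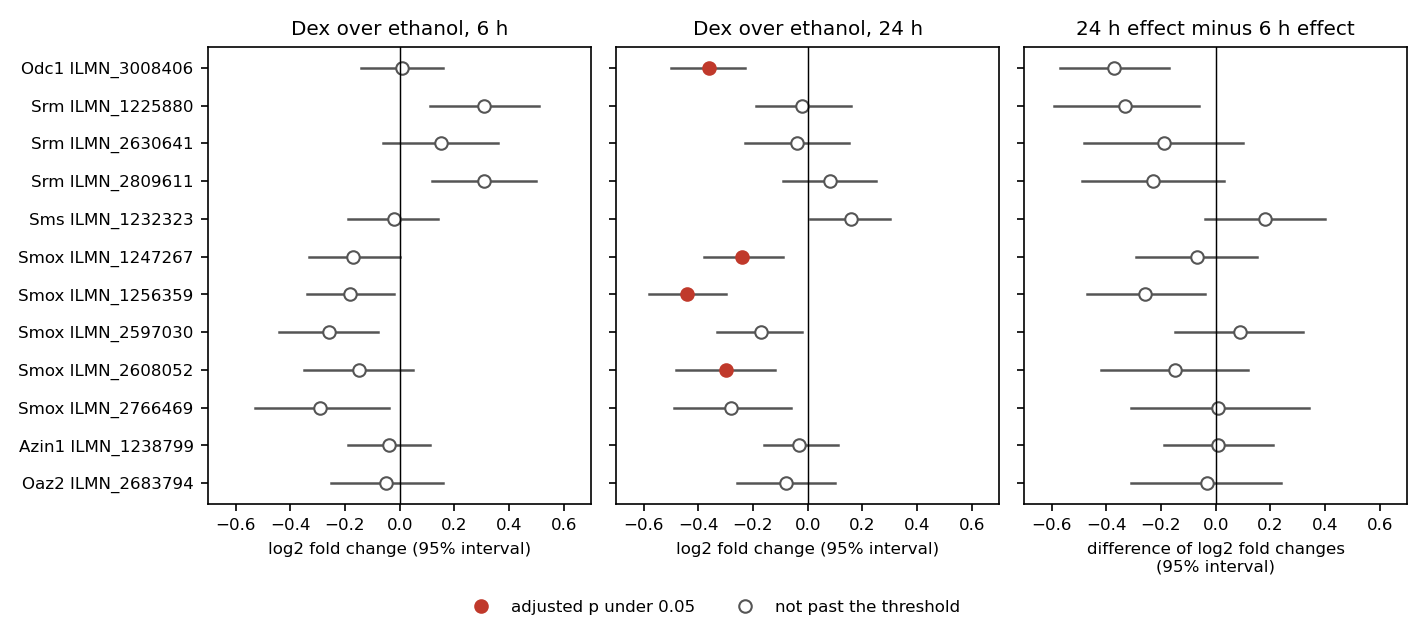
Log2 fold changes of the 12 probes for Dex over ethanol at 6 h (left) and 24 h (middle), and the 24 h effect minus the 6 h effect (right). Points are fold changes from the model and lines their 95% intervals; filled points have a limma adjusted p under 0.05 over all probes, which 4 probes reach at 24 h, 1 of Odc1 and 3 of Smox.

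Near copies of members without a probe of their own were read as follows. Amd2, a near copy of Amd1, had 2 probes, and a probe for one copy may also read the other. The brighter, ILMN_2992239, averaged 325.4 with Dex and 376.0 with ethanol at 6 h, a log2 fold change of -0.21 (SE 0.10, adjusted p = 0.361), and it had -0.08 at 24 h (adjusted p = 0.697). The probe annotated to Oaz1-ps, a pseudogene of antizyme 1, was bright and may read Oaz1 as well. It was looked up after its values were seen and lies outside the lists. It read 7871, 9042, 8169 and 9075 with Dex at 6 h, against 9509.9, 9811, 10048 and 10153 with ethanol, groups that did not overlap (log2 fold change -0.21, adjusted p = 0.135). At 24 h it had -0.04 (adjusted p = 0.824). Of the other relatives, Azin2, Oaz3 and Sat2, no probe passed at either time.

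Beyond the members, 6 lists covered genes that feed, use or move polyamines, the relatives of the members, and regulators. They held 30 genes, of which 29 had 52 probes. At 6 h 0 of these 52 probes passed the test as higher and 2 as lower, where 3.04% of all probes passed, 681 of the 45281 as lower. At 24 h 0 passed as higher and 4 as lower, where 6.28% of all probes passed, 3.09% as lower. Both counts are close to the share of all probes called in either direction. The calls, all lower, came from 1 gene at 6 h and from 3 genes at 24 h. By sign alone, 25 of the 52 probes were higher and 27 lower at 6 h, and 16 were higher and 36 lower at 24 h. At an unadjusted p under 0.05 there were 9 of the 52 at 6 h, all lower. Beside them stand 13.2% of all probes, 3179 of the 45281 as lower. At 24 h there were 11, 2 higher and 9 lower, beside 19.4% of all probes, 4407 of the 45281 as lower. Their median log2 fold change was -0.01 at 6 h and -0.05 at 24 h. Ornithine and arginine supply (Arg1, Arg2, Oat, Agmat, Slc7a1, Slc7a2) had no call among 12 probes at either time. The methionine cycle and the salvage of methylthioadenosine, the by-product of spermidine and spermine synthesis, had none among 16 probes of 7 genes. The regulators Myc, a known activator of Odc1, Max and Nfe2l2 had none among 5 probes. Of the transport genes, Slc18b1, a vesicular polyamine transporter, fell at 24 h to 229.6 ± 21.4 with Dex, against 274.7 ± 19.7 with ethanol (log2 fold change -0.26, SE 0.08, adjusted p = 0.0394). This call was lost without any 1 of 8 of the 10 arrays at 24 h, at adjusted p up to 0.304, and also with normexp (0.060) and with the 24 h arrays fitted alone (0.0521). Slc3a2, the heavy chain of several amino acid transporters, fell to 104.3 ± 7.88 with Dex, against 131.2 ± 17.2 with ethanol (-0.32, SE 0.09, adjusted p = 0.0212), groups that overlapped. Its call was lost without ethanol replicate 1 or 2 or Dex replicate 1 or 4 at 24 h, and without both arrays numbered 1 the value was -0.18 (adjusted p = 0.231).

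The calls with the greatest fold in these lists were in Eif5a, the translation factor that carries hypusine, a residue made from spermidine. Its 3 probes disagreed. Probe ILMN_1251631 read 1519.8, 996, 1514.5 and 1600.1 with Dex at 6 h, against 3199, 3594, 4451 and 3401 with ethanol, or -1.39 on the log2 scale (SE 0.14, adjusted p = 2.79e-07). At 24 h the same probe read 1570.5, 1149.6, 1612, 1172.5 and 1407 with Dex, against 2512, 2827, 2322, 2675 and 3088 with ethanol (-0.97, SE 0.13, adjusted p = 1.12e-05). The groups did not overlap at either time. Probe ILMN_2678828 fell by 0.55 at 6 h (SE 0.10, adjusted p = 0.000946) and by 0.37 at 24 h (SE 0.09, adjusted p = 0.0101). The later call was lost without ethanol or Dex replicate 1 at 24 h (adjusted p = 0.0717 and 0.0543) and without both (0.0864). Probe ILMN_2686044 had -0.21 at 6 h (adjusted p = 0.275) and 0.13 at 24 h (adjusted p = 0.405), with overlapping groups both times. Which transcripts each probe reads was not analysed here, so no single fold change stands for Eif5a. The probes of Dhps, Dohh and Eif5a2 did not pass at either time.

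**Figure D3:**
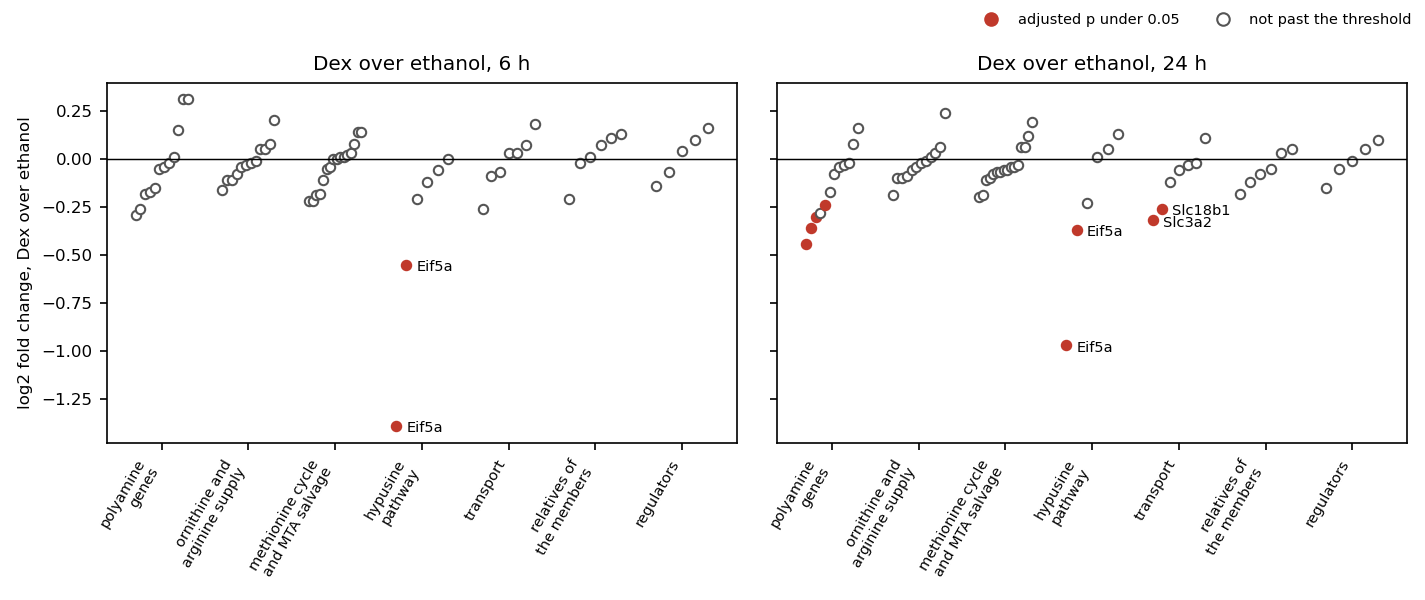
Log2 fold changes of Dex over ethanol for every probe of the polyamine genes and of the 6 pathway lists (MTA is methylthioadenosine), at 6 h (left) and 24 h (right), sorted within each list. Filled points have a limma adjusted p under 0.05; outside the polyamine genes these are 2 probes of Eif5a at each time, and Slc18b1 and Slc3a2 at 24 h.

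The Smox probe ILMN_1256359 was set against all other probes over the 18 arrays, each array's log2 value taken relative to the mean of its time. The 4 genes outside the lists with the highest Pearson correlation were Tmem230 (0.956), Sox11 (0.955), Tspan12 (0.951) and Pigp (0.945). All 4 fell with Dex at 24 h, at log2 fold changes of -0.29, -0.96, -0.37 and -0.37. Arrays of the same treatment share that treatment, so a correlation of this kind ranks genes by a like response and is given as a description.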

How the data were processed

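The authors deposited an intensity on a linear scale for each probe, and the submitters' processing notes name lumi. Its version, the background correction and the normalization: not given in the sources used here. Each column was matched to its sample by name, and groups were taken from the sample titles. The platform annotation gives 1 gene symbol for 34885 of the 45281 probes, several for 18 and no symbol for 10378. Log2 of the intensity (pseudocount 0) was fitted for all probes and 18 arrays with 4 group means, using limma 3.58.1 (lmFit, eBayes) under R 4.3.3. The covariates were the directions of deviation within a time that held under 0.1% of the spread of the probes with a mean log2 above 12. Benjamini-Hochberg adjustment ran over all 45281 probes within a comparison, and a probe was called at an adjusted p under 0.05. The number of arrays limits the precision. Group levels are given as mean ± SD. All probes of the members were named, list genes where called, and near copies. Members and lists were chosen with earlier results of these data known. Alternatives changed the covariates, the arrays, the normalization, the background correction, the filter on dim probes and the unit of testing.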

Additional observations from a re-analysis of the deposited data

Results flagged for a closer look

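In 64 groups of arrays, 16 probes in 4 groups each, the highest and lowest arrays were compared with the rest by the gap to the nearest array over the range. Chance alone sets apart about 1 in 20 groups in this way, and 2 of 64 were set apart. Dex replicate 4 at 6 h read 1049.9 for Srm probe ILMN_1225880, above 850.2 for the next array. Dex replicate 2 at 6 h read 996.0 for Eif5a probe ILMN_1251631, below 1514.5 for the next array, and the call of that probe held without it.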

How the results depend on the processing

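At 6 h, 24 h and for their difference, 1378, 2842 and 371 probes were called. Without the covariates for the empty directions these were 2836, 5726 and 1675, and 850, 1694 and 232 of 19057 genes with the brightest probe of each. Leaving out 1 array gave 939 to 1638, 1558 to 3061 and 171 to 528; the count at 24 h was 1558 without ethanol replicate 2 of that time, and the difference had 222 and 171 without Dex replicates 2 and 3 at 6 h, 212 without ethanol replicate 2 and 218 without Dex replicate 3 at 24 h. Of the 12 polyamine probes 0, 4 and 0 were called, without the covariates 3 at 6 h and 1 for the difference. Leaving out 1 array gave 0 to 1, 2 to 4 and 0, and without both 24 h arrays numbered 1, or with 1 probe a gene, 2 were called at 24 h. Of all probes, 2130 were called at 24 h without both arrays numbered 1. The replicate block gave 2310, 4303 and 1254 probes, and 4 polyamine probes at 6 h, 5 at 24 h (also Smox ILMN_2766469, adjusted p = 0.00891) and 1 for the difference. The block without covariates, chosen after seeing the data, gave 1931, 3821 and 904 probes, and 1 polyamine probe at 6 h, 5 at 24 h and 1 for the difference. Deviations of same-numbered Dex and ethanol arrays correlated at -0.109 to 0.17 at 6 h and at -0.914 to -0.181 at 24 h. The negative values at 24 h are a dependence between those arrays, so they do not show whether the numbers pair the samples. No called polyamine probe changed direction in any alternative. Quantile normalization, normexp, the filter and array weights kept each count of all probes within 1.5 times; of the polyamine probes called at 24 h, ILMN_1247267 was lost with normexp, with array weights and with the arrays of 1 time alone. A dim probe's fold change is limited by background.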
